A study of Schizosaccharomyces pombe with 2 samples.

Results

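The genes described here are 9 regulators of meiosis in *S. pombe* that growing cells keep from acting, either by removing their RNA through the RNA-binding protein Mmi1 or by splicing their introns only in meiosis. They are *mei2*, *mei3*, *mei4*, *ssm4*, *rec8*, *spo5*, *crs1*, *rem1* and *mes1*, which were listed by name and make up 9 of the 5113 protein-coding genes of the annotation. All transcript models that overlap a gene by at least 1 nt of exon on either strand were taken from 2 PacBio Iso-Seq libraries. Long reads in such libraries can cover a polyadenylated RNA from start to 3′ end. The models were collapsed without cap selection, so a model may start downstream of the start of its RNA. All cells carried h+ ade6-M216 ura4-D18 leu1-32 and were harvested in mid-log growth in YES, a rich medium, at 32 °C. The first library was made from untreated WT cells (WT). The second, called the pool here, mixed WT cells with cells that also carried hrp1del::kanMX hrp3del, and these were left untreated or given 14 mM caffeine or 200 ng/ml of the antifungal clotrimazole. Hrp1 and Hrp3 are chromatin remodelers of the CHD family. By these labels the cells were of a single mating type and growing in rich medium, and neither library is labelled as meiotic.

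There is 1 library per condition and no replicate. Genotype, treatment, sequencing run and depth change together between the libraries and cannot be told apart, so no test was made between them and no p-value is given. The labels give both libraries the batch number 1, while the series describes 2 sequencing runs. The files list collapsed models without read numbers. The depth is therefore unknown, and a gene without a model may still be transcribed. The WT library holds 26120 models and the pool 69996. The median number of sense models on a coding sequence was 4 per gene in WT and 10 in the pool, and each count below has to be read against that difference in size. As a check of the labels, 3 of the 8 sense models of *hrp3* in the pool skip at least 3000 nt of the gene, against 0 of 5 in WT. The labelled mating type could not be checked with these models, since both libraries hold full-length models of the P-cell pheromone receptor gene *map3* (2 and 5) and of the M-cell genes *mam2* (2 and 3) and *mfm3* (2 and 3). The P-cell gene *map2* had 0 models in WT and 2 full-length ones in the pool, and the M-cell genes *mfm1* and *mfm2* had 0 in both.

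In growing fission yeast the YTH-domain protein Mmi1 binds hexamers in meiotic RNAs, of the form TNAAAC, and hands the RNAs to the nuclear exosome. In meiosis the RNA-binding protein Mei2 and the non-coding RNA of *sme2* sequester Mmi1, and its targets accumulate. A further layer acts on introns, which in some meiotic genes are removed only once meiosis has begun. Among the 9 genes, *mei3* and *mei2* act at entry. Mei3 inhibits the Pat1 kinase, which otherwise keeps the RNA-binding protein Mei2 inactive. *mei4* encodes a forkhead transcription factor of middle meiosis. *rec8* encodes the meiotic cohesin subunit, *ssm4* a dynactin-related protein needed for nuclear movement in meiotic prophase, *crs1* and *rem1* meiotic cyclins, *spo5* an RNA-binding protein of the second division, and *mes1* an inhibitor of the anaphase-promoting complex between the divisions.

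The 9 genes differed widely in how often they held the Mmi1 hexamer. TNAAAC, with N as any base, was searched on the sense strand of each annotated spliced transcript, and overlapping matches were counted separately. *rec8* held 15 matches, or 8.03 per kb, *crs1* 8 (7.90 per kb), *spo5* 14 (6.99 per kb), *ssm4* 13 (6.30 per kb), *mei4* 11 (4.96 per kb) and *mei3* 5 (3.93 per kb). The other three genes held few, with 2 in *mes1* (1.80 per kb), 1 in *rem1* (0.827 per kb) and 2 in the long transcript of *mei2* (0.495 per kb). The median over all 5113 genes was 1.64 per kb, and 10.6% of genes had no match. As many matches per kb as in *rec8* occurred in 0.254% of genes, as in *mei4* in 1.90%, as in *mei3* in 4.97%, and as in *mei2* in 87.8%. A match is a description of the sequence and not a measured binding site.

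**Figure D1:**
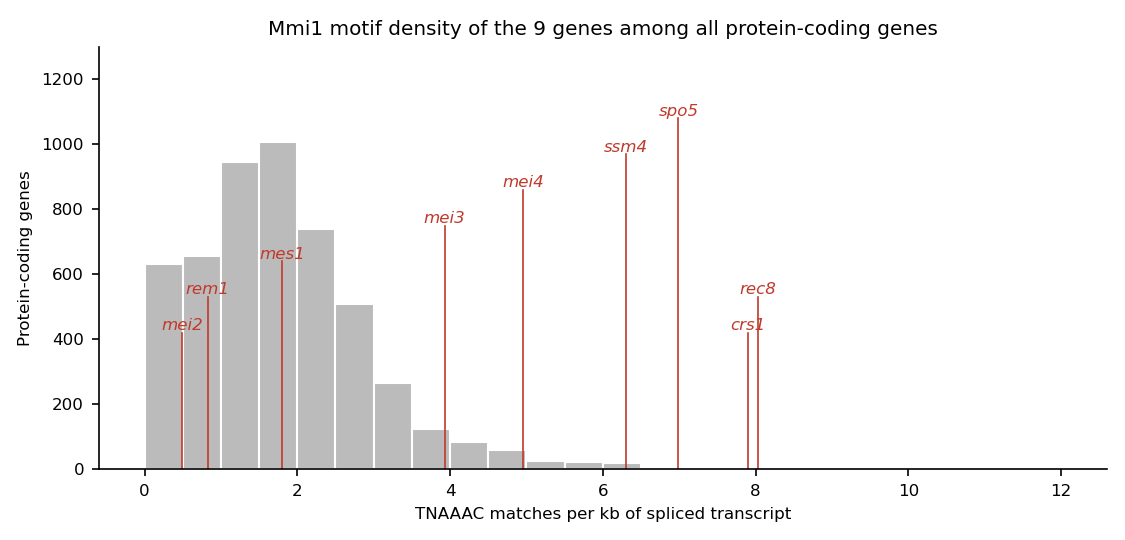
Number of protein-coding genes (y axis) by TNAAAC matches per kb of spliced transcript (x axis, bins of 0.5 per kb, grey bars), with the 9 genes as red lines whose heights only separate the labels. *mei3*, *mei4*, *ssm4*, *spo5*, *crs1* and *rec8* lie between 3.93 and 8.03 per kb, right of the median of 1.64, while *mei2* and *rem1* lie left of it.

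Stretches with several hexamers are shown as examples of these matches. For the 5 genes with the most matches, a window of 60 nt of coding sequence from ASM294v3 is given 5′ to 3′ on the sense strand, with the matches in capitals. The windows lie at chromosome II, 1473914 to 1473973 (+ strand), for *mei4*, chromosome I, 4535213 to 4535272 (− strand), for *ssm4*, chromosome II, 2570133 to 2570192 (+), for *rec8*, chromosome II, 2537531 to 2537590 (+), for *spo5*, and chromosome II, 3452394 to 3452453 (−), for *crs1*.
mei4: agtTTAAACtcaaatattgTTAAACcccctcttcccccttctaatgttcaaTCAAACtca
ssm4: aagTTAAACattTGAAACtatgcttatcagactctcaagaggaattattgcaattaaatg
rec8: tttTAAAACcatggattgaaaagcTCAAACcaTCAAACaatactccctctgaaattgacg
spo5: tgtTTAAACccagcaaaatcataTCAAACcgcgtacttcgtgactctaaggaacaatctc
crs1: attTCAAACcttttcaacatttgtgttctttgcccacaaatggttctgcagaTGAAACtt
In *ssm4* all 13 matches lay in the coding sequence, in *mei4* 10 of 11 and in *crs1* 7 of 8. *spo5* differed, with 8 of its 14 matches outside the coding sequence, and 30 nt after its stop codon (chromosome II, 2538101 to 2538130, +) held 3 of them. In *mei3* as well, 4 of 5 matches lay outside the coding sequence. The *spo5* stretch is given in the same way.
spo5 after the stop codon: acTCAAACTTAAACcaacaTAAAACctgtt

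The introns are the other feature under study. The genes have 12 annotated introns, 4 each in *rec8* and *crs1*, 2 in *spo5* and 1 each in *rem1* and *mes1*, while *mei2*, *mei3*, *mei4* and *ssm4* have none. The introns on which the splicing results turn are given 5′ to 3′ on the sense strand of ASM294v3, with the GT and AG ends and any match to a branch site motif (the motif CTAAC, the motif CTAAT, the motif CTGAC or the motif CTGAT, searched on the sense strand only) in capitals. *rec8* intron 4 lies at chromosome II, 2570676 to 2570715 (+), and *spo5* intron 1 at 2536451 to 2536498 (+). The *crs1* introns lie on the − strand of chromosome II at 3453078 to 3453118, 3452878 to 3452917, 3452770 to 3452821 and 3452541 to 3452588, the *rem1* intron on that strand at 1954166 to 1954250, and the *mes1* intron at chromosome I, 1499359 to 1499433 (+).
rec8 intron 4: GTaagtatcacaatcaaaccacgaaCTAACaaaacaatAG
spo5 intron 1: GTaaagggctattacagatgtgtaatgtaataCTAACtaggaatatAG
crs1 intron 1: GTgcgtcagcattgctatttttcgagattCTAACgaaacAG
crs1 intron 2: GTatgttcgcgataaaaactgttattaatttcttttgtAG
crs1 intron 3: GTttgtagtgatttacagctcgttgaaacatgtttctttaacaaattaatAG
crs1 intron 4: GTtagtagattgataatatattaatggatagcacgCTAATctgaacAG
rem1 intron: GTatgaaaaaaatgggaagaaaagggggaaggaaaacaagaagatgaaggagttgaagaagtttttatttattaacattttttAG
mes1 intron: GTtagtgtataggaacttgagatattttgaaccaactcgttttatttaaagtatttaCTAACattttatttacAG
Of all 5185 annotated introns of protein-coding genes, 76.4% held such a match, and *crs1* introns 2 and 3 and the *rem1* intron did not. The absence of these letters says nothing about where the branch site of those introns lies. The *rem1* intron was 85 nt long, against a median of 56 nt, and consisted of 71.8% purines, a share reached by 0.0964% of introns and set against a median of 47.1%. The first 6 bases of *rec8* intron 4, GTAAGT, were shared by 27.7% of introns, while those of *crs1* intron 1, GTGCGT, were shared by 0.270%, and those of *crs1* intron 4 and the *mes1* intron, GTTAGT, by 0.675%.

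In the WT library 3 of the 9 genes had any sense model on the coding sequence, where 91.1% of all protein-coding genes did. These were *rec8* with 1 model, *spo5* with 1 and *mes1* with 2. All 4 models were full-length, meaning that they ran from the first codon or before it to the end of the stop codon or beyond. Full-length models thus existed for 3 of 9 genes, against 88.3% of all genes. No member had a sense model that started inside its coding span (20.8% of all genes) or ended inside it (23.3%). Only the 3 genes with these 4 models could have shown such a form, so the counts do not show that truncated forms are lacking. The other 6 genes had no coding sense model in this library. Without read numbers, these counts do not show how strongly any of the 9 genes is silenced.

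In the pool all 9 genes had a sense model on the coding sequence, where 98.7% of all genes did, and 8 of 9 had a full-length one (96.7% of all genes), the exception being *ssm4*. The genes held 27 sense models on coding sequence, of which 16 were full-length, 6 started inside the coding span and 5 ended inside it. Models that started inside came from 3 genes (*mei2*, *mei4* and *spo5*), against 49.5% of all genes, and models that ended inside came from 2 (*ssm4* and *rec8*), against 51.2%. For 5 of the 9 genes, *mei2*, *mei3*, *mei4*, *crs1* and *rem1*, the pool had a full-length model and WT had none, a pattern found in 8.47% of all genes. Only genes without a full-length WT model can show this pattern, and 88.3% of all genes had such a model. The share therefore restates the absence of models in WT. It does not show that appearance in the pool is particular to these genes. Of the 4 WT models, 3 recurred in the pool with ends within 20 nt and junctions within 10 nt. The remaining sense models, 2 in WT and 6 in the pool, touched only untranslated parts and came from the neighbours *cdk9* at *mei4* and *mug110* at *crs1* in both libraries, and *orc1* at *rec8* in the pool.

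**Figure D2:**
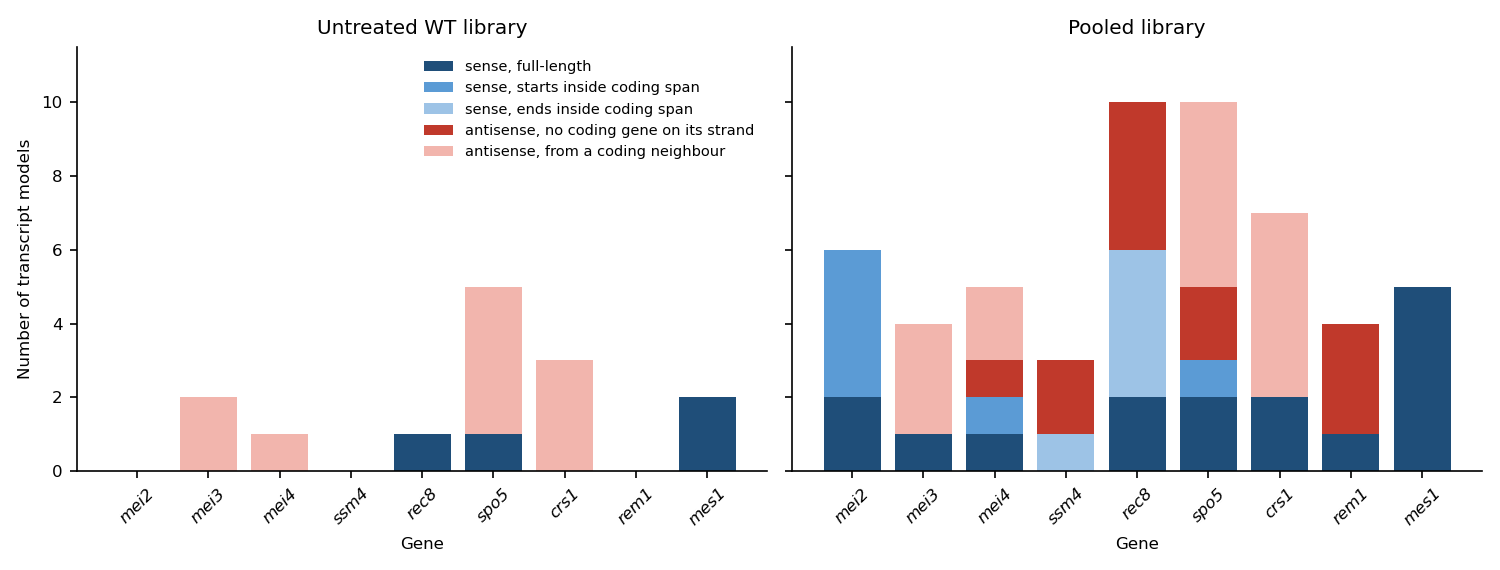
Number of transcript models per gene (y axis) in the untreated WT library (left) and the pool (right), each 1 library without replicate, stacked by class. In WT, *rec8*, *spo5* and *mes1* alone have sense models on coding sequence and all antisense models come from coding neighbours, while in the pool all 9 genes have sense models and 5 have antisense models of their own.

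*mei2* (SPAC27D7.03c, chromosome I, 4510983 to 4515025, −), the master regulator, codes for 750 residues without an intron. It had no model in WT. In the pool 2 full-length models had leaders of 878 and 283 nt before the first codon, which were shorter than the annotated leader of 1733 nt. The other 4 models started 632, 632, 672 and 675 nt inside the coding span and ended 195 to 579 nt past the stop codon. The first in-frame ATG of these shorter models was codon 276. None of them held either of the 2 hexamer matches of the gene.

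*mei3* (SPBC119.04, chromosome II, 719719 to 720990, +) codes for 148 residues. It had no sense model in WT and 1 full-length model in the pool. This model began 666 nt before the first codon, far outside the annotated leader of 87 nt, and held 11 upstream ATGs. It ended 205 nt past the stop codon, where the annotated transcript extends for 738 nt, and so held 3 of the 5 hexamer matches. The 20 genomic nt after its 3′ end contained 16 A, with a run of 8. A run of at least 6 occurred there in 10% of WT models and 10.5% of pool models. Such a stretch can prime reverse transcription from within an RNA, and its part in this 3′ end was not tested.

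*mei4* (SPBC32H8.11, chromosome II, 1473068 to 1475285, +) codes for 517 residues. It had no coding sense model in WT. The pool had 1 full-length model with a leader of 126 nt, exactly the annotated length, and 1 model that started 356 nt inside the coding span, with its first in-frame ATG at codon 162. Both held all 11 hexamer matches of the gene. The full-length model was followed by 13 A in 20 nt, with a run of 9.

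*ssm4* (SPAC27D7.13c, chromosome I, 4534674 to 4536736, −) codes for 670 residues and was the only member without a full-length model in either library. Its 1 sense model, in the pool, started 624 nt before the first codon, within the neighbouring *tpr1*, and ended 916 nt before the end of the stop codon. The model reads 365 residues of Ssm4 without reaching a stop codon and keeps 3 of the 13 hexamer matches. The 20 nt after its 3′ end contained 6 A with a run of 2, below the median of 8 A over all models.

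*rec8* (SPBC29A10.14, chromosome II, 2568938 to 2570993, +) was the gene with the most truncated 3′ ends. WT had 1 model, with introns 1 to 3 spliced and intron 4 retained. In it the reading frame meets a stop codon within intron 4 after 539 residues, where the spliced RNA codes for 561. The pool had the same retained form and also a fully spliced one. A further 4 pool models ended inside the coding span, 108, 313, 313 and 482 nt before the end of the stop codon, the first of them within intron 4. They read 539, 471, 121 and 414 residues, the shortest because its intron 3 was retained, and the other 3 held no complete stop codon. Frames were read on genomic sequence without the poly(A) tail. The model with 539 residues ended on the first base of the intron 4 stop codon, TAA, which a tail of A would complete. These models kept 9, 8, 8 and 7 of the 15 hexamer matches, so that each lacked 6 to 8 of them. All but one of the *rec8* models on coding sequence began at the same position, 10 nt before the first codon, and the exception began 26 nt before it. The 3′ ends at 313 nt were followed by 14 A in 20 nt with a run of 5, and the one at 482 nt by 4 A, none adjacent.

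*spo5* (SPBC29A10.02, chromosome II, 2536150 to 2538254, +) codes for 567 residues. Its full-length models began 65 nt (WT) or 71 nt (pool) before the first codon and ended 217 to 219 nt past the stop codon. The WT model and 1 pool model had both introns spliced. A second pool model retained intron 1, which places a stop codon after 77 residues. The third pool model began 65 nt inside the coding span and retained both introns.

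*crs1* (SPBC2G2.09c, chromosome II, 3452323 to 3453516, −) codes for a cyclin of 300 residues once its 4 introns are removed, which is known to occur in meiosis. WT had no model on its coding sequence. The 2 full-length pool models were each 1 unbroken exon that retained all 4 introns, with a stop codon in intron 1 after 106 residues. Their leaders were 439 and 116 nt, with 11 and 1 upstream ATGs, and they held all 8 hexamer matches of the spliced transcript. The model with the 439 nt leader overlapped exon sequence of the neighbouring *mug110* on the same strand.

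*rem1* (SPBC16E9.17c, chromosome II, 1953419 to 1954712, −) codes for a cyclin of 402 residues and is also described as spliced in meiosis only. WT had no sense model. The 1 pool model was full-length, began 177 nt before the first codon, and had its purine-rich intron removed at the annotated junction. This model, from cells labelled as growing, thus differs from that description, and the reason was not tested.

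*mes1* (SPAC5D6.08c, chromosome I, 1498898 to 1500084, +) codes for 101 residues, and splicing of its intron too is known to be regulated in meiosis. It had the most full-length models. The 2 WT and 5 pool models were all full-length and all spliced. Their leaders ran from 266 to 310 nt and they ended from 495 to 860 nt past the stop codon, so that they differed mainly in the 3′ end. No model of either library retained the *mes1* intron, although the cells were labelled as growing.

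**Figure D3:**
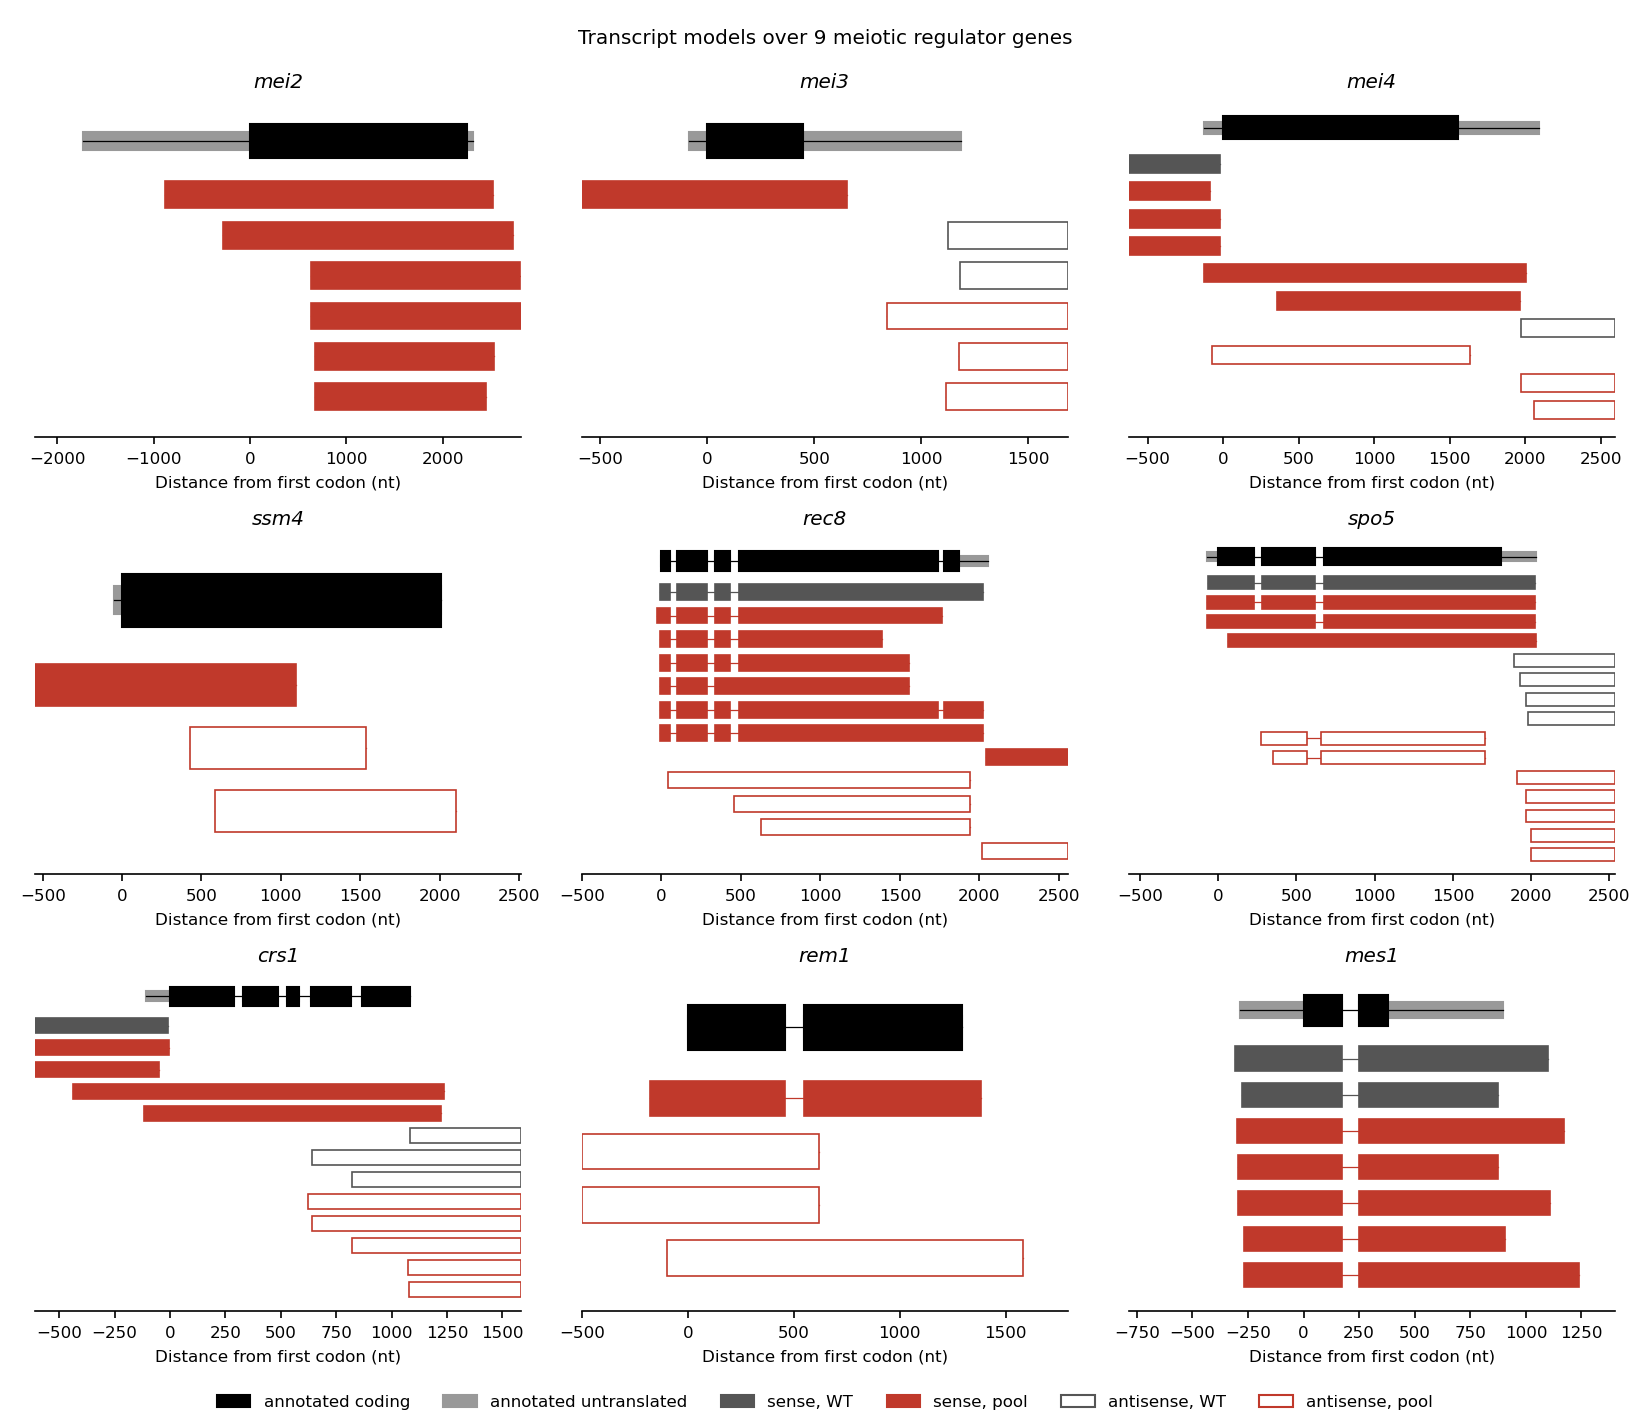
Transcript models over each gene, drawn to scale by distance from the first codon (x axis, nt, in the direction of the gene) and cut 500 nt beyond the annotated transcript. Black boxes are coding and grey boxes untranslated parts of the annotation, filled boxes sense models and open boxes antisense models, in dark grey for WT and red for the pool. *rec8* shows 4 pool models that end inside the coding span, *mei2* 4 that start inside it, and *crs1* 2 unbroken pool models across all 4 introns.

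Intron retention was counted over every sense model that spans an intron with at least 10 nt of exon on each side, with junctions within 10 nt of the annotated ones called spliced. In WT, 7 of the 12 introns were spanned and 1 was retained by at least 1 model, *rec8* intron 4, against 34.6% of all spanned introns. Only 1 WT model spanned this intron, so it was also retained without any spliced model, as were 1.43% of spanned introns. In the pool all 12 were spanned and 8 were retained by at least 1 model (74.2% of all spanned introns). The 4 introns of *crs1* were retained without any spliced model, a state found for 1.38% of spanned introns in the pool. These 4 share the same 2 RNAs and are not independent of each other. The shares over all introns were not matched for the number of models that span an intron. An intron spanned by 1 or 2 models more easily lacks a spliced one. These shares therefore do not show how unusual *rec8* intron 4 or the *crs1* introns are.

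Counted over models, 1 of 8 observations of a member intron in WT was retained (12.5%, exact Clopper-Pearson 95% interval 0.316 to 52.7%), where 11.2% were over all genes. In the pool 13 of 40 were retained (32.5%, interval 18.6 to 49.1%), where 19.0% were over all genes. The intervals cover counting error only, and several observations come from the same model. Of the 13, *crs1* gave 8, *spo5* 3 and *rec8* 2. *rem1* and *mes1* gave none of theirs. All spliced junctions of the members, 7 in WT and 27 in the pool, lay exactly at the annotated positions.

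**Figure D4:**
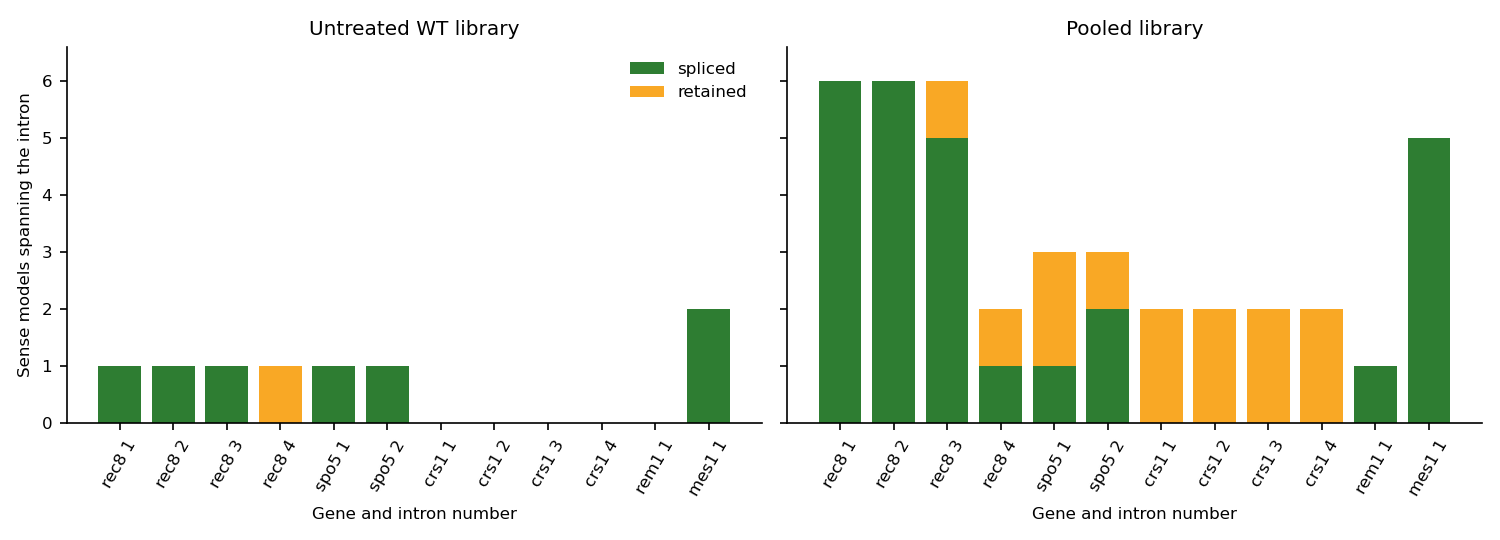
Number of sense models spanning each of the 12 introns (y axis) in WT (left) and the pool (right), split into spliced (green) and retained (yellow). *crs1* introns are retained in both of the pool models that span them, *mes1* is spliced in all 2 and 5 models, and *rec8* intron 4 is retained in the WT model and in 1 of 2 pool models.

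Antisense models were then divided by whether they also overlap a coding gene on their own strand. In WT, 4 of 9 members had an antisense model, against 46.9% of all genes, and all 10 such models belonged to a convergent coding neighbour. These were *lsb1* at *mei3* (2 models), *act1* at *mei4* (1), *pcf1* at *spo5* (4) and *ade9* at *crs1* (3). Only the *ade9* models reached coding sequence, over up to 43.6% of that of *crs1*. No member had an antisense model free of such a neighbour, which 8.45% of all genes had.

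In the pool 7 of 9 members had an antisense model, against 85.2% of all genes, and 5 had one free of a coding gene on its own strand (55.7% of all genes). Of the 27 antisense models, 15 came from the same 4 neighbours and 12 did not. *rec8* had 4 of these 12, *rem1* 3, *ssm4* 2, *spo5* 2 and *mei4* 1. *mei2* and *mes1* had no antisense model in either library, although the annotation lists 3 and 2 antisense lncRNA genes over them. Over all members it lists 12, of which 6 had a model in the pool and 0 in WT.

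At *rec8*, 3 of the antisense models shared 1 start, 69 nt past the stop codon, and covered 97.4%, 79.8% and 71.6% of the coding sequence, while the fourth touched only 37 nt of the gene. At *mei4*, the antisense model started 83 nt past the stop codon and covered the whole coding sequence, as did 1 *rem1* model that started 289 nt past the stop codon. The other 2 *rem1* models started 672 nt before the end of the stop codon, within the gene, and covered 44.4% of the coding sequence. One of them ended before 17 A in 20 nt, with a run of 14. At *ssm4*, 1 model started 90 nt past the stop codon and 1 started 478 nt before its end, with 70.9% and 55.1% of the coding sequence covered.

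The 2 *spo5* antisense models were spliced. Both started 101 nt before the end of the stop codon, covered 77.6% and 73.1% of the coding sequence and shared an intron of 87 nt that begins with GT and ends with AG on the antisense strand (chromosome II, 2536792 to 2536878, −), given here because no antisense gene is annotated over *spo5*. Capitals mark the ends and the branch motif match.
spo5 antisense intron: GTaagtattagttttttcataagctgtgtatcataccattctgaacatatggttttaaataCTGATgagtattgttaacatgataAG

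Genes that act on the 9 regulators were examined from lists. Of the 12 genes of the Mmi1 removal machinery, among them *mmi1* itself, *erh1*, which encodes its partner, *red1*, the scaffold of the complex, and *rrp6*, a nuclear exosome nuclease, 12 had a full-length model in WT and 12 in the pool, against 88.3% and 96.7% of all genes. The others listed were *mtl1*, *pla1*, *pab2*, *pir1* (*iss10* in the annotation), *pir2*, *red5*, *rmn1* and *ctr1*. *mmi1* had 12 full-length models in WT and 19 in the pool. Introns of the machinery were retained in 19 observations and spliced in 158 in WT, and in 57 and 311 in the pool, where 11.2% and 19.0% of observations over all genes were retained in WT and the pool. Antisense models free of coding neighbours lay over 1 of the 12 genes in WT and 10 in the pool, against 8.45% and 55.7% of all genes. Among 3 coding regulators of entry, *pat1*, the kinase gene, had 4 and 5 full-length models in WT and the pool and *ste11*, which encodes the transcription factor that switches on *mei2*, had 5 and 6. *tor2*, the growth kinase gene, had 0 full-length models among 6 sense models in WT and 2 among 7 in the pool.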

How the data were processed

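Total RNA of 2 libraries was sequenced by PacBio Iso-Seq. The authors clustered HiFi reads with Iso-Seq 4, aligned the isoforms with minimap2 2.24 and ran TAMA Collapse (100 nt allowed at starts and at junctions, no cap selection), so models with shorter 5′ ends were joined and 5′ truncated forms are under-counted. The deposited positions are exon starts, exon ends and exon numbers per model. The deposited score is 40 on every model and was not used. The submitters' processing notes name ASM294v2. Models were used with the RefSeq annotation of ASM294v3, after 97.2% (WT) and 89.7% (pool) of their introns read GT-AG there, against 0.145% and 0.187% after a shift of 10 nt. Coordinates are 1-based.

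Samples were grouped by their labels. Models on chromosomes I, II and III (26057 and 69823) were classed in Python 3.11.15 (NumPy 2.4.6). Intervals came from SciPy 1.17.1 and plots from Matplotlib 3.10.9. The classification was tested on simulated data. All members and listed genes are named, and members, lists and rules were chosen with earlier results of these data known. Alternatives covered overlap, completeness, junction tolerance, flank, joining of models and motif.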

Additional observations from a re-analysis of the deposited data

Results flagged for a closer look

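Outside the 3 chromosomes, the pool held 6 models on the separate mating-type region sequence, where the WT library held 0. These models entered no comparison, and whether the difference goes beyond that in library size was not tested.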

How the results depend on the processing

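Of 53 pairs of a result and an alternative, 44 stayed within 1.5 times the value given, or within the interval of a share. The exceptions were 8 antisense counts and 1 motif density. Requiring 50% of a model inside the gene lowered WT antisense from 10 models and 4 members to 0 and 0, and the pool from 27 models to 10. Leaving out models on a coding gene of their own strand lowered WT to 0 models and 0 members and the pool to 12 models. Counting only models on coding exons, chosen after seeing the data, gave 3 in WT and 16 in the pool. The median hexamer density of the members was 1.57 per kb for TTAAAC alone, against 4.96 for TNAAAC, while that of all genes was 0. No paired analysis was possible because each condition has 1 library and no test was made, and no replicate could be left out. Depth is unknown, so a gene without a model in WT may have been missed. Collapsing of shorter 5′ ends limits the models that start inside a gene. Whether those that remain begin at the start of an RNA was not tested. The part of internal A-rich stretches in the 3′ ends was not tested either.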

Other observations

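Of 6 other meiotic genes under Mmi1, 2 had a full-length model in WT, *tht2* and *meu6*, and 5 in the pool, against 88.3% and 96.7% of all genes. *mug9* and *mug10* had no sense model in WT and 4 and 6 full-length ones in the pool. The exception was *mcp5*, which the annotation lists as *num1* and which encodes the cortical anchor of dynein in meiotic prophase. Its sense strand gave 1 model in WT and 7 in the pool, none full-length, while its antisense strand gave 7 and 11 models free of a coding gene on their own strand. *mug8* had 8 sense models in WT, none full-length, and 26 in the pool, 3 of them full-length, with 7 intron observations retained and 9 spliced in WT, and 25 and 27 in the pool, counted over models.

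*sme2*, whose RNA sequesters Mmi1 in meiosis, had 2 models in WT and 8 in the pool on its own strand (chromosome II, 339346 to 340907, −), and none spanned the annotated gene. In WT, 1 model from 339177 to 339932 covered its 3′ part. The other, from 340763 to 341729, began upstream of the gene and ended inside its 5′ part, as did 6 of the 8 pool models.

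The number of ATGs in the leaders of the pool models varied among the members and was not compared with other genes. The *mei3* leader held 11, the *crs1* leaders of 439 and 116 nt 11 and 1, and the 624 nt leader of the truncated *ssm4* model 10. The *crs1* model with the 439 nt leader overlapped the neighbour *mug110*, and the *ssm4* model the neighbour *tpr1*. The *mei2* leaders of 878 and 283 nt held 2 and 0, those of *mes1* 1 or 2, and those of *rec8*, *spo5*, *mei4* and *rem1* 0.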
